A study of Mus musculus with 48 samples.

Results

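The genes described here are the heat shock proteins and cochaperones of the mouse brain, 79 of the 15782 genes measured by spatial transcriptomics in mice after spaceflight. They were taken by symbol, under a rule chosen with earlier results of these data known. It takes every symbol that begins with Hspa, Hsp90 or Dnaj, or with Hspb, Cct or Bag followed by a digit. Hspd1, Hspe1, Hsph1 and Cryab are taken as well. By known role, 10 are HSP70 or HSP110 chaperones such as Hspa8 and Hsph1, 2 are the cytosolic HSP90 genes Hsp90aa1 and Hsp90ab1, and 3 carry small heat shock protein symbols (Cryab, Hspb1 and Hspb11). A group of 10 genes was set apart as chaperones of the endoplasmic reticulum (ER), Hspa5 and Hsp90b1 among them, 38 are the remaining DNAJ cochaperones, 11 are chaperonin genes (Cct genes, Hspd1 and Hspe1) and 5 are Bag genes. Hspb11 matches the symbol pattern but encodes an intraflagellar transport protein, and Hspa1b was not analysed here.

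Chaperones bind unfolded or partly folded proteins and keep them from aggregating until they reach their native shape. HSP70 proteins do this in cycles of ATP hydrolysis, which DNAJ proteins stimulate while delivering a client and which HSP110 and BAG proteins reset by exchanging the nucleotide. HSP90 acts on kinases and steroid receptors, small heat shock proteins hold clients without ATP, chaperonins fold actin, tubulin and mitochondrial proteins inside a ring, and Hspa5 (BiP) with Hsp90b1 (GRP94) fold proteins that enter the secretory pathway.

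The study asked how spaceflight, and treatment with the manganese porphyrin antioxidant BuOE, change gene expression in regions of the brain. Its 12 male C57BL/6 mice were 10 weeks old, carried no genetic change named in the labels, and formed 4 groups of 3. FLT-SAL mice received saline and spent 35 days on the space station, and FLT-BuOE mice flew likewise but received 1 mg/kg BuOE under the skin, in 0.2 mL, from 7 days before launch and then every week. GC-SAL and GC-BuOE mice had the same treatments, food, light cycle and temperature (26 to 28 °C). They stayed 35 days in flight hardware on the ground, on a schedule 3 days behind. Flight mice came to the laboratory up to 20 h after landing, so flight here includes landing and transport. From 1 fixed section of 6 µm per mouse, 4 areas of illumination (AOIs) were read: cornu ammonis 1 (CA), dentate gyrus (DG), frontal cortex (FCT) and another cortical area (CT). Sections of the same group lay together on 1 slide, 4 slides in all, so effects of slide and of group cannot be told apart.

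In each of the 48 AOIs, DNA tags released from hybridised probes were counted, 1 probe per gene, and scaled by the authors to a common upper quartile (Q3-normalized count). Counts per AOI ranged from 322629 to 1579380 with a median of 652040, and FLT-SAL AOIs were the deepest (median 991426) and FLT-BuOE AOIs the shallowest (median 548888). Negative control probes had Q3-normalized counts of 9.24 to 20.9, and 73 of the 79 genes (92.4%) had a mean above 1.5 times the negative mean, against 87.6% of all genes. The 6 below it were Dnajb4, Dnajb8, Dnajc22, Dnajc28, Dnajc5g and Hspb11. The labelled regions carried their own markers: the summed signal of 4 CA1 pyramidal genes was 332 to 541 in CA and at most 257 elsewhere, that of 5 dentate granule genes 266 to 390 in DG and at most 184 elsewhere, and that of 5 cortical layer genes at least 191 in FCT and CT and at most 172 in CA and DG. Because each gene had its own probe, signals of different genes are not compared as amounts.

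The first question was whether the chaperones differed between flight and ground across the brain. Each mouse's log2(Q3-normalized count + 1) was averaged over its 4 AOIs, groups were compared with limma over all 15782 genes, and a gene was called at a Benjamini-Hochberg adjusted p below 0.05. Under saline, 4 of the 79 genes were called and all 4 fell in flight: Cryab, Hsp90b1, Dnajb5 and Hsph1. That comparison called 0.843% of all genes in either direction and 0.209% as lower. Under BuOE, 6 of the 79 were called, all lower in flight: the same 4 genes with Hspa8 and Hspa5. Here 0.336% of all genes were called and 0.222% were lower. No chaperone was called higher in flight in either comparison, and edgeR called 3 of these genes in each. The saline and BuOE comparisons share no mice, although 1 fit estimated their spread, and all 4 genes called under saline were among the 6 called under BuOE. An AOI holds many cell types, so fewer cells of a type and less RNA per cell cannot be told apart.

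**Figure D1:**
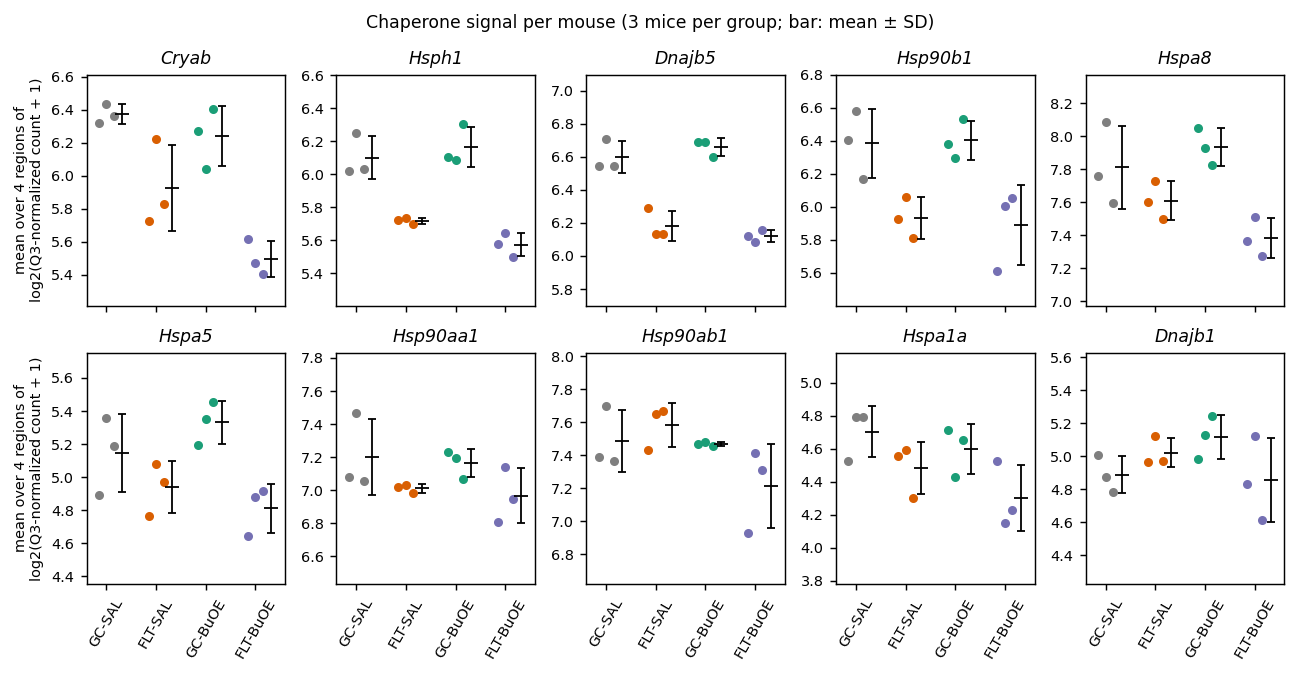
Signal of 10 chaperone genes in each mouse (points, mean over the 4 regions of log2(Q3-normalized count + 1)) by group, with the group mean ± SD (bars, n = 3); the vertical axes do not start at 0. For Hsph1, Dnajb5 and Hsp90b1 the 6 flight mice lie below the 6 ground mice, while Hsp90ab1 and Dnajb1 overlap between FLT-SAL and GC-SAL.

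Cryab, on chromosome 9 (chr9:50751325-50756636, plus strand, GRCm38), encodes alpha-B-crystallin, a small heat shock protein. Its mean over the regions, on the log2 scale, was 6.32, 6.44 and 6.36 in the GC-SAL mice and 5.73, 6.22 and 5.83 in the FLT-SAL mice. In the BuOE groups it was 6.27, 6.04 and 6.40 on the ground and 5.61, 5.47 and 5.40 in flight. Within each treatment every flight mouse was below every ground mouse, but FLT-SAL mouse 2 was above GC-BuOE mouse 2. The log2 difference between flight and ground was -0.45 ± 0.11 (SE) under saline (adjusted p = 0.0238) and -0.74 ± 0.11 under BuOE (adjusted p = 3.73e-05). The saline call was lost on leaving out FLT-SAL mouse 1 or 3 or any GC-SAL mouse (adjusted p over single removals 0.0065 to 0.224) and in edgeR's test of the counts (adjusted p = 0.0544). The BuOE call held in every such removal, with an adjusted p of at most 0.0035.

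Hsph1 encodes HSP110, the nucleotide exchange factor that works with HSP70 to pull apart aggregates (chr5:149614287-149636376, minus strand). Its mean over the regions was 6.02, 6.25 and 6.03 in GC-SAL and 5.72, 5.73 and 5.70 in FLT-SAL on the log2 scale. In GC-BuOE it was 6.10, 6.08 and 6.30 and in FLT-BuOE 5.57, 5.64 and 5.50. The 6 flight mice were all below the 6 ground mice. The log2 difference was -0.38 ± 0.10 (SE) under saline (adjusted p = 0.042) and -0.59 ± 0.10 under BuOE (adjusted p = 0.000404). The saline call was close to the threshold and was lost on leaving out any mouse of the FLT-SAL or GC-SAL group, or GC-BuOE mouse 2 or 3 (adjusted p over single removals 0.0278 to 0.245). Under BuOE the adjusted p stayed at or below 0.0226.

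Dnajb5 encodes a DNAJ cochaperone of HSP70 that is expressed in brain and heart (chr4:42949814-42959425, plus strand). Its mean over the regions was 6.55, 6.71 and 6.54 in GC-SAL and 6.29, 6.13 and 6.13 in FLT-SAL on the log2 scale. It was 6.69, 6.69 and 6.60 in GC-BuOE and 6.12, 6.08 and 6.16 in FLT-BuOE. Flight mice, at 6.08 to 6.29, did not overlap with ground mice, at 6.54 to 6.71. The log2 difference was -0.42 ± 0.09 (SE) under saline (adjusted p = 0.0147) and -0.54 ± 0.09 under BuOE (adjusted p = 0.000556). Taking away GC-SAL mouse 1 or 2, or FLT-SAL mouse 2 or 3, ended the saline call (adjusted p over single removals 0.0084 to 0.156), and the BuOE call was kept in each removal.

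Hspa8 encodes HSC70, the constitutive cytosolic HSP70, which also removes clathrin coats from synaptic vesicles (chr9:40800984-40810087, plus strand). Its mean over the regions was 7.76, 8.08 and 7.59 in GC-SAL and 7.60, 7.73 and 7.50 in the FLT-SAL mice on the log2 scale. In GC-BuOE it was 8.05, 7.93 and 7.82 and in FLT-BuOE 7.37, 7.51 and 7.27. The saline groups overlapped and the BuOE groups did not. The log2 difference was -0.20 ± 0.10 (SE) under saline (95% interval -0.41 to 0.01, adjusted p = 0.584) and -0.55 ± 0.10 under BuOE (adjusted p = 0.00193). With edgeR the BuOE difference was past the threshold no longer (adjusted p = 0.0707). Whether the flight difference itself differed between treatments was tested as an interaction, which for Hspa8 was -0.35 ± 0.15 (adjusted p = 0.71) and did not pass the test.

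The same interaction called 0 of the 79 genes and 0% of all genes with limma, and 0 of the 79 with edgeR. At an unadjusted p below 0.05 there were 10 of the 79, against 6.27% of all genes, and the nearest to a call was Dnajc15, a cochaperone of the mitochondrial protein import motor (log2 interaction -0.44 ± 0.16, adjusted p = 0.599). A larger count of genes under BuOE than under saline is therefore not shown to be a difference between treatments.

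A comparison of the 6 flight mice with the 6 ground mice, both treatments together, was added after the first results were seen and rests on the same mice. It called 6 of the 79 genes, all lower in flight: Cryab (-0.60 ± 0.08, SE), Hsph1 (-0.49 ± 0.07), Hsp90b1 (-0.48 ± 0.08), Dnajb5 (-0.48 ± 0.07), Hspa8 (-0.38 ± 0.07) and Hspa5 (-0.37 ± 0.08). It called 1.43% of all genes and 0.488% as lower. These 6 calls held in all 18 alternatives tried. In 4 of the 79 genes (Hsph1, Dnajb5, Hsp90b1 and Dnaja4) every flight mouse was below every ground mouse, against 0.437% of all genes. In 0 of the 79 was every flight mouse above every ground mouse, against 0.653% of all genes. Hspa12a (0.29 ± 0.08, adjusted p = 0.0548) and Hspa14 (0.27 ± 0.08, adjusted p = 0.0688), 2 divergent HSP70 genes, had the most positive differences and were not called.

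The other classes gave values nearer to 0. Of the 38 DNAJ genes 1 (Dnajb5) was called in each flight comparison, with class medians of 0.02 under saline and 0.01 under BuOE on the log2 scale, beside medians over all genes of 0.01 and -0.02. Of the 11 chaperonin genes 0 were called in either with limma or edgeR, with 0 and 4 at an unadjusted p below 0.05, against 8.79% and 9.31% of all genes; their differences ran from -0.14 to 0.15 under saline and from -0.24 to 0.26 under BuOE. The chaperonin member with the highest signal, Hspe1, the mitochondrial co-chaperonin, differed by -0.10 ± 0.10 (SE) and -0.21 ± 0.10. Of the 5 Bag genes 0 were called with either tool, and 0 had an unadjusted p below 0.05; Bag6, which guides tail-anchored and misfolded proteins, differed by -0.01 ± 0.11 and 0.06 ± 0.11. In all, 9 of the 79 genes under saline and 16 under BuOE were lower in every flight mouse than in every ground mouse, against 6.25% and 7.68% of all genes, and 7 and 6 were higher in every flight mouse, against 8.59% and 5.2% of all genes.

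The cytosolic HSP90 pair differed in sign under saline. Hsp90aa1, the inducible form, was 7.08, 7.47 and 7.06 in GC-SAL and 7.02, 7.03 and 6.98 in FLT-SAL on the log2 scale, a difference of -0.19 ± 0.10 (SE, adjusted p = 0.619). Hsp90ab1, the constitutive form, was 7.39, 7.70 and 7.37 in GC-SAL and 7.43, 7.65 and 7.67 in FLT-SAL, a difference of 0.10 ± 0.10 (adjusted p = 0.879). Neither passed the test. Under BuOE the differences were -0.20 ± 0.10 for Hsp90aa1 and -0.25 ± 0.10 for Hsp90ab1, with adjusted p of 0.547 and 0.431.

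Hspa1a, Dnajb1 and Hspb1, 3 genes used as markers of an acute heat shock response, were not called in any flight comparison. Hspa1a, an inducible HSP70 with signal close to 1.5 times the negative probes, had differences of -0.22 ± 0.13 (SE) under saline and -0.30 ± 0.13 under BuOE. Dnajb1, the inducible HSP40, had differences of 0.13 ± 0.12 and -0.26 ± 0.12, and its 12 mouse means lay between 4.62 and 5.25. Hspb1 (HSP27) was also low, above 1.5 times the negative probes in 29 of the 48 AOIs. Its differences were 0.01 ± 0.14 and -0.46 ± 0.14 (adjusted p = 0.222 for the latter). With intervals of about this width, moderate changes of these 3 genes were not detectable.

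A list of other cytosolic folding genes, 29 of 31 in the tables, was called in 0 cases in both flight comparisons by limma, with 3 and 5 at an unadjusted p below 0.05 (8.79% and 9.31% of all genes) and medians of 0.08 under saline and -0.08 under BuOE. Hsf1, the transcription factor that drives the heat shock response, differed by -0.06 ± 0.11 (SE) and -0.11 ± 0.11. Stip1, which links HSP70 to HSP90, differed by -0.33 ± 0.11 under saline (adjusted p = 0.161) and -0.27 ± 0.11 under BuOE (adjusted p = 0.396). It was called only in the comparison of all flight with all ground mice, as lower in flight (-0.30 ± 0.08, adjusted p = 0.0215), and that call was lost without FLT-SAL mouse 2, GC-BuOE mouse 3 or GC-SAL mouse 3 (adjusted p up to 0.0866).

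**Figure D2:**
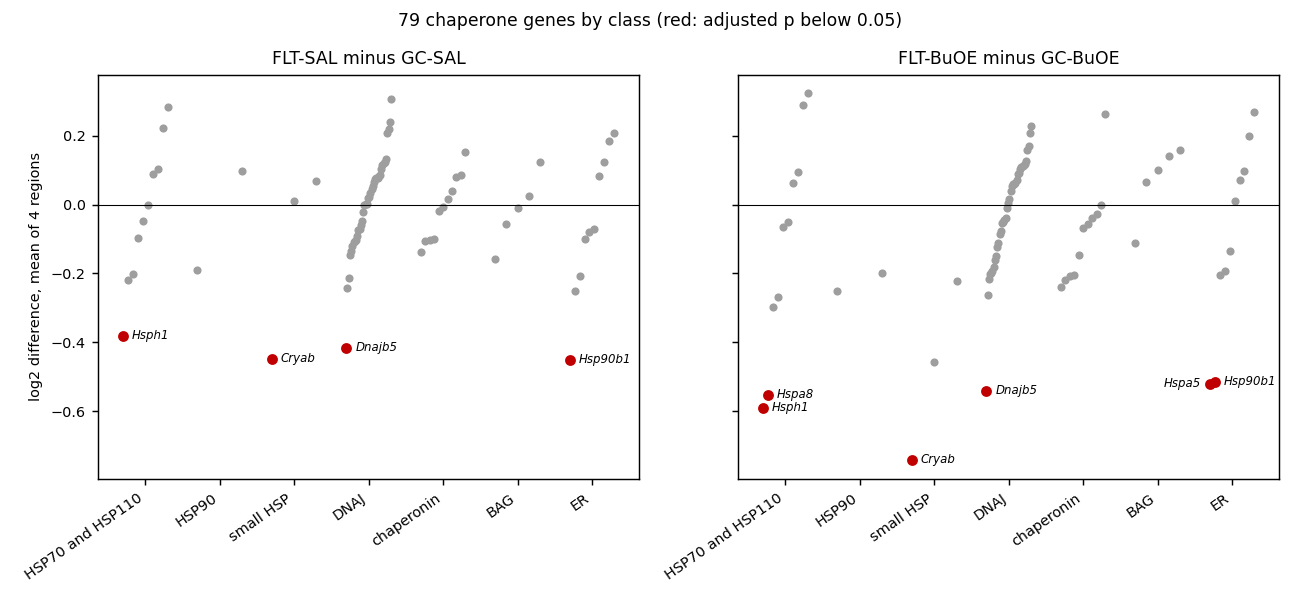
Difference of each of the 79 genes between flight and ground (log2, mean of the 4 regions) by class, under saline (left) and under BuOE (right), sorted within a class; red points have an adjusted p below 0.05. The 4 and 6 called genes are all negative and come from the HSP70 and HSP110, small HSP, DNAJ and ER classes.

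The ER chaperones held 2 of the called genes. Hsp90b1, the ER form of HSP90, folds integrins and Toll-like receptors (chr10:86690209-86705509, minus strand). Its mean over the regions was 6.41, 6.58 and 6.17 in GC-SAL and 5.93, 6.06 and 5.81 in FLT-SAL on the log2 scale. In GC-BuOE it was 6.38, 6.30 and 6.53 and in FLT-BuOE 5.61, 6.01 and 6.05. The 6 flight mice were below the 6 ground mice. The log2 difference was -0.45 ± 0.11 (SE) under saline (adjusted p = 0.0246) and -0.51 ± 0.11 under BuOE (adjusted p = 0.00977). The saline call was lost without any 1 FLT-SAL mouse or GC-SAL mouse 1 or 2 (adjusted p up to 0.26), and the BuOE call without FLT-BuOE mouse 1 or GC-BuOE mouse 3 (adjusted p up to 0.168) and with edgeR (adjusted p = 0.0733).

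Hspa5 encodes BiP, the HSP70 of the ER, which also binds the sensors of the unfolded protein response (chr2:34771970-34777547, plus strand). Its mean over the regions was 4.89, 5.36 and 5.19 in GC-SAL and 4.77, 5.08 and 4.97 in FLT-SAL on the log2 scale. In GC-BuOE it was 5.19, 5.35 and 5.45 and in FLT-BuOE 4.64, 4.88 and 4.91. The saline groups overlapped and the BuOE groups did not. The log2 difference was -0.21 ± 0.12 (SE) under saline (adjusted p = 0.648) and -0.52 ± 0.12 under BuOE (adjusted p = 0.0203). The BuOE call was lost without FLT-BuOE mouse 1 or 2 or GC-BuOE mouse 2 or 3 (adjusted p up to 0.251) and with edgeR (adjusted p = 0.155). Hspa5 was above 1.5 times the negative probes of the same AOI in 41 of the 48 AOIs. Of the other 8 ER members none was called; Dnajb9, a BiP cochaperone induced by ER stress, had positive differences of 0.19 ± 0.12 and 0.20 ± 0.12.

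A list of 22 further ER folding and unfolded protein response genes was, like the cytosolic list, chosen with earlier results of these data known. All 22 were in the tables, and 16 had negative differences under saline, with a median of -0.08. Under BuOE 18 did, with a median of -0.23. Of all genes 53.4% had a positive difference under saline and 44.3% under BuOE. Under saline 2 were called, both lower in flight: the disulfide isomerases Pdia4 (-0.49 ± 0.11, SE, adjusted p = 0.0133) and Pdia6 (-0.45 ± 0.10, adjusted p = 0.0167). Under BuOE 4 were called, all lower: Sdf2l1, a BiP partner (-0.65 ± 0.14, adjusted p = 0.00977), Pdia6 (-0.61 ± 0.10, adjusted p = 0.000454), Pdia3 (-0.58 ± 0.10, adjusted p = 0.000404) and the lectin chaperone Calr (-0.43 ± 0.10, adjusted p = 0.0255). The saline calls were each lost on leaving out any 1 of 4 mice, with adjusted p of up to 0.11 for Pdia4 (GC-SAL mice 2 and 3, FLT-SAL mice 1 and 3) and 0.332 for Pdia6 (GC-SAL mice 2 and 3, FLT-SAL mice 2 and 3). Under BuOE, Pdia3 and Pdia6 kept their calls in every alternative tried. Sdf2l1 lost its call without FLT-BuOE mouse 2 or GC-BuOE mouse 1 or 3 (adjusted p up to 0.154). Calr lost it in 5 single removals (FLT-BuOE mouse 2 or 3, or any GC-BuOE mouse, adjusted p up to 0.158) and with edgeR. The signal of Sdf2l1 was low, with region means of 29.3 to 32.5, where the negative probes had medians of 11.2 to 18.9. With both treatments together 7 of the 22 were called lower in flight and 0 higher, Hyou1 (-0.35 ± 0.08) and the transcription factor Xbp1 (-0.40 ± 0.08) among them. Of all genes, 0.209% were called lower under saline, 0.222% under BuOE and 0.488% with both treatments together. Xbp1, the effector of the IRE1 branch, differed by -0.38 ± 0.11 under saline and -0.43 ± 0.11 under BuOE, neither of them called (adjusted p = 0.0785 and 0.0579). Of the other branch genes in the list, Atf4 differed by 0.00 ± 0.10 and -0.27 ± 0.10, Ddit3 by -0.06 ± 0.11 and -0.09 ± 0.11, and Atf6 by 0.10 ± 0.10 and -0.12 ± 0.10. The sensor genes Ern1 (0.07 ± 0.11 and -0.08 ± 0.11) and Eif2ak3 (-0.09 ± 0.11 and 0.06 ± 0.11) were not called either.

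**Figure D3:**
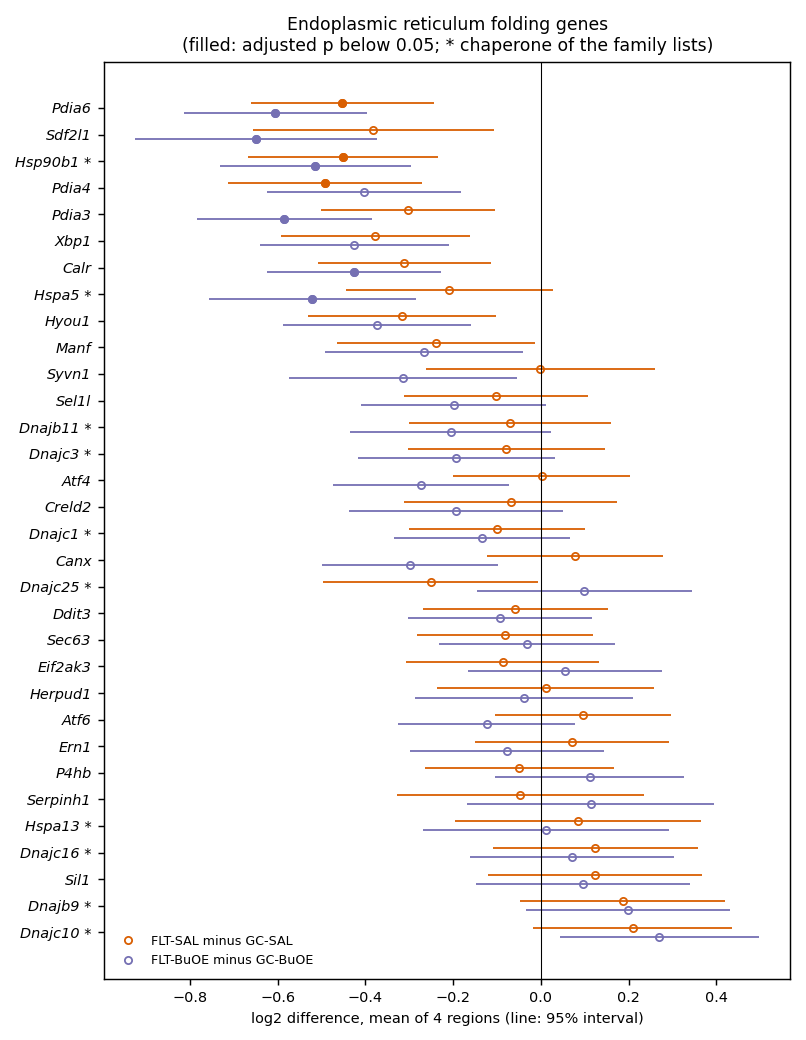
Difference between flight and ground (log2, mean of the 4 regions) for 32 ER folding genes under saline (orange) and under BuOE (purple), with 95% intervals; filled points have an adjusted p below 0.05 and an asterisk marks the 10 chaperones of the family. Pdia6, Sdf2l1, Hsp90b1, Pdia4 and Pdia3 lie furthest to the left, and Dnajb9 and Dnajc10 furthest to the right.

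Start regions of 3 of the called genes (Hsp90b1, Hspa5 and Hsph1) are shown because chaperone genes are commonly grouped by 2 DNA elements, and these 3 held one: the heat shock element bound by HSF1 and the ER stress element bound by ATF6 with NF-Y. RefSeq start regions (GRCm38.p6) were available for 63 of the 79 genes, among them Hsph1, Dnajb5, Hsp90b1 and Hspa5; those of the called genes Cryab and Hspa8 were not used here. The 250 bases before each RefSeq start were searched on both strands, and positions are counted from that start. The ER stress element was searched as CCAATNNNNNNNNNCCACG. It was in 0.1126% of 32851 windows and in 3 of the 82 windows (3.659%) of the 63 genes. The genes that held it were Hspa5, Hsp90b1 and Dnajc3. The Hsp90b1 window held it once on each strand, at positions -212 to -194 and -107 to -89, and both matches also lie before the GENCODE gene. Hspa5 held it at -65 to -47, but its GENCODE gene starts further upstream, so that the match begins at base 56 of that gene, in the 5′ UTR of its first exon. In the sequences, written 5′ to 3′ along the gene, capitals mark the fixed letters of the element; the first is chr10:86705510-86705694 (minus strand) and the second chr2:34772019-34772048 (plus strand).
Hsp90b1: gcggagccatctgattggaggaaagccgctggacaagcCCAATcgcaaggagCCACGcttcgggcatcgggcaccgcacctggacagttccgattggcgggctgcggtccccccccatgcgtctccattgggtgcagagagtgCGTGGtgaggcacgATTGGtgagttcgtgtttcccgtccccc
Hspa5: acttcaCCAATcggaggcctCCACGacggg

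The heat shock element was searched as 2 facing units, GAANNTTC or TTCNNGAA, which 12.84% of windows held, and as 3 units, GAANNTTCNNGAA or TTCNNGAANNTTC, which 0.4657% held and which always contain a 2-unit match. Of the 63 genes, 14 held 2 units and 3 held 3 units (Dnajb6, Hspd1 and Hspe1), and none of these 3 was called in a flight comparison. Counted as windows, like the shares above, 16 of the 82 of these genes (19.51%) held 2 units and 4 (4.878%) held 3 units. Hsph1 held 2 units at -33 to -26 from the nearer of its RefSeq starts. This match begins at base 8 of the GENCODE gene, in the UTR of 1 of its transcripts, and is not before that gene's start. No Dnajb5 window held any of these elements. Hspa1a, the inducible HSP70, is shown for comparison with its 2-unit match at -104 to -97. Capitals mark the facing units; Hsph1 is chr5:149636351-149636380 and Hspa1a chr17:34972157-34972406, both on the minus strand. A match of letters is a description and not a bound site.
Hsph1: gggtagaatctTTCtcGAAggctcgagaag
Hspa1a: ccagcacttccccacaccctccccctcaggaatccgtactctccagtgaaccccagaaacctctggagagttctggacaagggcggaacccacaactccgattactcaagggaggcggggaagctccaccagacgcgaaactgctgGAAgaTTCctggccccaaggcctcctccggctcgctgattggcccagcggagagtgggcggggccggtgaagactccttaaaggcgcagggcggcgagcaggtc

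Within single regions the tests had less precision, with 3 AOIs against 3 and a call requiring both an adjusted p below 0.05 and a difference beyond 1.5-fold. Under saline, 1 of the 316 pairs of chaperone and region was called, Dnajb5 in CT. This rule called 0.136% of all gene and region pairs and 0.019% as lower. Under BuOE, 5 of the 316 pairs were called, all lower in flight: Hspa8 in CA, Hspa8, Hsph1 and Hsp90b1 in DG, and Cryab in CT. Here 0.0459% of all pairs were called and 0.0269% were lower. No chaperone was called in FCT in either comparison.

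Summed marker lists of regions and cell types were read between the same groups. Over 9 lists and 4 regions there were 36 sums of Q3-normalized counts. Of these, 7 were higher and 2 lower in every FLT-SAL AOI than in every GC-SAL AOI. Between FLT-BuOE and GC-BuOE, 2 were higher and 4 lower in flight. Of all gene and region pairs, 6.87% were higher and 5.68% lower with no overlap under saline, and 4.85% and 6.1% under BuOE. Those shares are of single genes and not of sums, so the counts are a description. The CA1 pyramidal sum in CA was 496 to 541 in FLT-SAL against 332 to 398 in GC-SAL, and the dentate granule sum in DG 361 to 390 against 266 to 308. Under BuOE both overlapped, at 399 to 449 against 356 to 448 in CA and at 283 to 388 against 298 to 310 in DG. The astrocyte sum in DG was 535 to 591 in FLT-SAL against 448 to 480 in GC-SAL, and the oligodendrocyte sum was higher in every FLT-SAL AOI than in every GC-SAL AOI in CA, FCT and CT. Under BuOE the microglial sum was lower in flight in CA and CT and the cortical layer sum higher in FCT and CT, while none of the 9 lists was apart in DG, where 3 of the 5 pairs were called. No gene of these lists was at 0 throughout a group, and the part of these differences in the chaperone values was not tested.

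In CT, the Q3-normalized count of Dnajb5 was 92.2, 133 and 106 in GC-SAL and 56.0, 66.0 and 62.6 in FLT-SAL, so that every flight value was below every ground value (0.566-fold, log2 difference -0.82 ± 0.16, SE, adjusted p = 0.00635). GC-SAL mouse 2 and FLT-SAL mouse 1 were each needed for the call (adjusted p up to 0.0946 without them). In the BuOE groups it was 90.3, 84.0 and 104 on the ground and 67.1, 65.6 and 61.6 in flight. Whether the saline difference varied over the 4 regions was tested directly: with limma 0 of the 79 genes and 0.0444% of all genes passed, 2 of the 79 and 4.29% of all genes had an unadjusted p below 0.05, and Dnajb5, with the lowest p of the 79, had an adjusted p of 1.0.

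In CA, Hspa8 was 185, 209 and 159 in GC-BuOE and 105, 119 and 94.0 in FLT-BuOE, with no overlap (0.577-fold, log2 difference -0.79 ± 0.16, SE, adjusted p = 0.0264). In DG it was 241, 195 and 213 in GC-BuOE and 153, 148 and 117 in FLT-BuOE, also with no overlap (0.642-fold, -0.64 ± 0.13, adjusted p = 0.0195). The FLT-SAL values of Hspa8 were 162, 170 and 118 in CA and 159, 190 and 172 in DG, within or near the GC-SAL ranges of 131 to 215 and 163 to 222. The CA call was lost without any 1 FLT-BuOE mouse or GC-BuOE mouse 1 or 2 (adjusted p up to 0.211) and with DESeq2 (adjusted p = 0.436), and the DG call without FLT-BuOE mouse 3 or GC-BuOE mouse 1 or 3 (adjusted p up to 0.182).

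In DG, Hsph1 was 72.3, 61.3 and 73.4 in GC-BuOE and 35.0, 51.3 and 25.6 in FLT-BuOE (0.528-fold, log2 difference -0.92 ± 0.18, SE, adjusted p = 0.0134). Hsp90b1 there was 92.3, 73.8 and 109 in GC-BuOE and 40.02, 50.0 and 63.4 in FLT-BuOE (0.56-fold, -0.84 ± 0.17, adjusted p = 0.0195). In neither gene did the groups overlap. These calls, with that of Hspa8 in DG, were lost on leaving out the AOI of lowest sequencing saturation, GC-BuOE mouse 3 in DG (81.7%). Hsph1 was lost also without FLT-BuOE mouse 3 or GC-BuOE mouse 1 (adjusted p up to 0.127), and Hsp90b1 without FLT-BuOE mouse 1 or 2 or GC-BuOE mouse 1 (adjusted p up to 0.244), and both with DESeq2.

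In CT, Cryab was 103, 109 and 114 in GC-BuOE and 46.5, 47.8 and 43.1 in FLT-BuOE, a wide gap with no overlap (0.427-fold, log2 difference -1.23 ± 0.17, SE, adjusted p = 5.01e-05). This call held in all 20 alternatives tried. The saline groups overlapped in CT, at 115, 97.8 and 85.6 in GC-SAL and 67.0, 117 and 67.7 in FLT-SAL. The interaction for Cryab in CT, -0.94 on the log2 scale, was not called (adjusted p = 0.363). Over all 316 pairs the interaction called 0, by limma, edgeR and DESeq2, with 17 at an unadjusted p below 0.05. By limma 0.00792% of all pairs were called and 5.51% had an unadjusted p below 0.05.

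Cryab is a gene of oligodendrocytes among other cells, so a list of oligodendrocyte genes is given beside it; 11 of its 12 genes were in the tables and none was at 0. In CT their summed Q3-normalized count ran from 719 to 756 for GC-SAL and from 1147 to 1523 for FLT-SAL. It ran from 765 to 909 for GC-BuOE and from 618 to 761 for FLT-BuOE. Between FLT-BuOE and GC-BuOE 10 of the 11 were lower and 0 called, with a median log2 difference of -0.31. Between FLT-SAL and GC-SAL 9 of the 11 were higher in flight. Of these, 3 (Mobp, Cnp and Cldn11) were called higher, against 0.0634% of all genes in CT. The mean of Cryab was lower in FLT-SAL in all 4 regions, though the saline groups overlapped in each. The list thus moved with Cryab in the first comparison and against it in the second, and its part in the Cryab values was not tested.

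**Figure D4:**
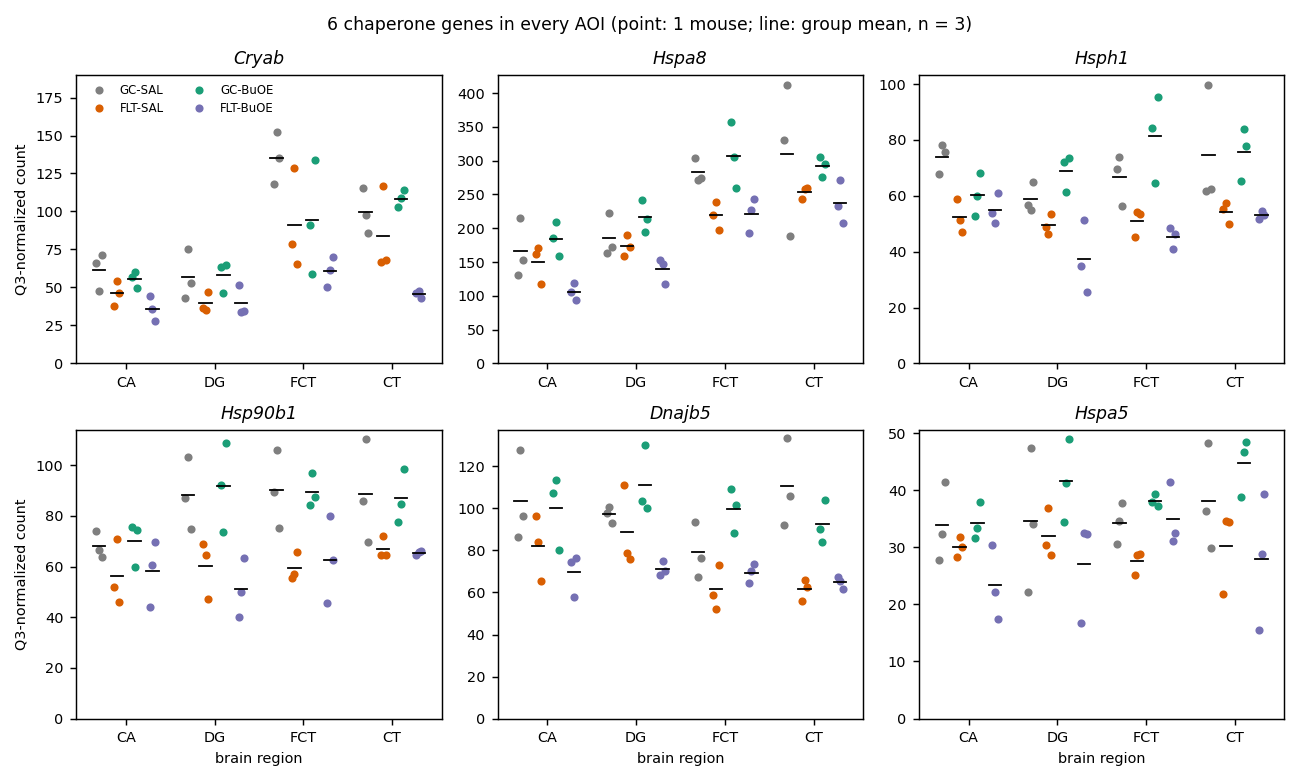
Q3-normalized count of the 6 genes called in the flight comparisons, in each AOI (points, 1 mouse each) by region and group, with the group mean (line, n = 3). Cryab in CT separates the FLT-BuOE AOIs (43.1 to 47.8) from the GC-BuOE AOIs (103 to 114), and Cryab and Hspa8 lie higher in FCT and CT than in CA and DG.

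The regions were also read one by one. Hsph1, Hsp90b1, Dnajb5, Cryab, Hspa8 and Hspa5 each had a lower mean in flight in 4 of 4 regions under saline and in 4 of 4 under BuOE. Genes called on the mean of the same 4 regions tend to do so by their selection, so this is a description. Of the members not called on that mean, 10 of 75 under saline and 10 of 73 under BuOE had a lower mean in 4 of 4 regions, against 7.88% and 10.1% of all genes. Hsph1 had no overlap in 4 of 4 regions under saline and 3 of 4 under BuOE, and Hsp90b1 in 2 of 4 and 3 of 4. Dnajb5 and Hspa8 had no overlap in 1 of 4 under saline and 4 of 4 under BuOE, Hspa5 in 1 of 4 and 2 of 4, and Cryab in 0 of 4 and 2 of 4. Hsp90aa1 had a lower mean in flight in 4 of 4 regions in both, by 0.12 to 0.30 on the log2 scale under BuOE, while Hsp90ab1 was lower in 1 of 4 under saline and 4 of 4 under BuOE. Over all 316 pairs, 25 under saline and 44 under BuOE were lower in flight with no overlap, against 5.68% and 6.1% of all gene and region pairs. Pairs higher in flight with no overlap numbered 19 and 16, against 6.87% and 4.85%.

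Among pairs with an unadjusted p below 0.05 under saline, the largest differences other than those above were mixed in sign, and none was called. In CA, Dnajb14 had a difference of 0.71 (adjusted p = 0.305), Hspa14 of 0.49 and Hsph1 of -0.49. Dnajb14 is a DNAJ protein of the ER membrane, but it was counted in the DNAJ class and not in the ER class. In DG, Hsp90b1 had -0.55, Hspa12a 0.53 and Dnajc18 0.50. In FCT, Cryab had -0.62, Dnajb9 0.59 and Hsp90b1 -0.58. In CT, after Dnajb5, Hspa1a had -0.53 and Dnaja4 -0.44.

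The second question was what BuOE changed among flight mice. Over the mean of the regions 0 of the 79 genes were called between FLT-BuOE and FLT-SAL by limma and 0 by edgeR, with 7 at an unadjusted p below 0.05. Of all genes 0.12% were called and 7.9% had an unadjusted p below 0.05. Cryab had the largest difference (-0.43 ± 0.11, SE, adjusted p = 0.0887), followed by Hsp90ab1 (-0.37 ± 0.10, adjusted p = 0.154), both with every FLT-BuOE mouse below every FLT-SAL mouse. Of the 11 chaperonin genes 11 had a negative difference and 0 were called, with a class median of -0.14, while 37.3% of all genes had a positive difference and the median over all genes was -0.04. Within regions 1 of 316 pairs was called, Cryab in CT (0.57-fold, -0.81 ± 0.17, adjusted p = 0.0296), against 0.0269% of all pairs. Here 11 of the 11 oligodendrocyte genes were lower as well. Of these, 3 were called (Mobp, Cldn11 and Mbp), against 0.0507% of all genes called lower in CT. Their part in the Cryab value was not tested. The Cryab call was lost without FLT-SAL mouse 2, GC-BuOE mouse 3 or any 1 FLT-BuOE mouse. Its adjusted p was then 0.865 at most and its difference -0.55 at the least.

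Other pairs in this comparison were not called. Dnajc15 in CA had a difference of -0.80 (adjusted p = 0.572), and Cct6b and Hspb1 in the same region of -0.67 and -0.59. In DG, Hsph1 had -0.45, Dnajb2 0.44 and Cct3 -0.37. In FCT, Hspa1a had -0.69, Hspb11 -0.63 and Dnajb13 -0.62, and in CT, Dnajb4 had -0.58 and Dnajc7 0.51. Mean Q3-normalized counts over all groups were low for Hspa1a (21.08), Hspb11 (20.14) and Dnajb13 (24.17) in FCT and Dnajb4 (18.99) in CT. Negative probes in FCT were also lower in FLT-BuOE (mean 12.63) than in FLT-SAL (mean 16.23). Their means in these 2 groups lay closer together in CA, DG and CT. The part of this background in the differences was not tested.

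The third comparison was of BuOE on the ground. Between GC-BuOE and GC-SAL 0 of the 79 genes and 0% of all genes were called by limma over the mean of the regions, and 0 of the 79 by edgeR. At an unadjusted p below 0.05 there were 4 of the 79, against 4.41% of all genes. The 6 genes called in flight differed there by -0.13 ± 0.11 (SE) for Cryab, 0.06 ± 0.10 for Hsph1, 0.06 ± 0.09 for Dnajb5, 0.02 ± 0.11 for Hsp90b1, 0.12 ± 0.10 for Hspa8 and 0.19 ± 0.12 for Hspa5. Within regions 0 of 316 pairs were called by limma, edgeR and DESeq2, against 0.00158% of all pairs by limma, and 19 had an unadjusted p below 0.05 (5.05% of all pairs). The nearest to a call was Dnajc15 in FCT, with a difference of 0.58 (adjusted p = 0.749).

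The last question was how the chaperones differed between regions, over all 48 AOIs with the mouse as a random block and the same 1.5-fold rule. Between the hippocampal regions (CA and DG) and the cortical regions (FCT and CT), 3 of the 79 genes were called, all lower in the hippocampal regions, against 3.19% of all genes called and 2.31% called lower. Mean Cryab was 49.8 ± 12.7 (SD, n = 12) for CA and 48.7 ± 13.5 for DG, against 95.2 ± 36.1 for FCT and 84.4 ± 28.7 for CT, a log2 difference of -0.81 ± 0.07 (SE, adjusted p = 1.48e-17). Hspa8 lay between 94.0 and 241 in the hippocampal AOIs and between 189 and 412 in the cortical AOIs, with a log2 difference of -0.69 ± 0.06 (adjusted p = 4.93e-20). Hsp90aa1 lay between 82.8 and 151 in the former and between 133 and 268 in the latter, with a difference of -0.71 ± 0.06 (adjusted p = 2.27e-20). In each of these genes the ranges overlapped and the order of the 2 tissues was the same in the means of both regions. Of the 11 oligodendrocyte genes 10 were also lower in the hippocampal regions and 4 were called, so the Cryab difference runs beside a difference in that list; its part was not tested. Hsp90ab1 differed by -0.24 and stayed under the fold threshold.

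The 2 cortical regions and the 2 hippocampal regions were also compared with each other. Between FCT and CT 0 of the 79 genes were called by limma, with 7 at an unadjusted p below 0.05, against 0.101% of all genes called and 8.22% with an unadjusted p below 0.05. Between DG and CA 2 were called, Dnajb7 (-0.67 ± 0.12, SE) and Bag5 (-0.59 ± 0.13), both lower in DG, against 4.1% of all genes called and 1.69% called lower. Both lay near the negative probes, at 22.6 to 49.3 for Dnajb7 and 21.3 to 44.5 for Bag5 in CA, where the negative probes themselves were higher (median 18.9) than in DG (median 11.2). Neither passed the fold threshold with a pseudocount of 5.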

How the data were processed

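Tags from whole-transcriptome probes were collected per AOI on the GeoMx platform. The authors made deduplicated probe counts with the vendor's pipeline and deposited them, together with a Q3-normalized table per region. This deposited signal was made by the authors by scaling each AOI's counts to 1 common upper quartile, 40.02, and 99.98% of the values were whole multiples (within 0.02 counts) of what 1 count was worth. The deposited tables of the authors' own comparisons (fold changes and p-values) were not used. Tags identify probes, so no genome build entered the counts, and probe positions are not given in the sources used here; gene positions are from GENCODE vM21 (GRCm38) and start regions from RefSeq.

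The tests were computed here on log2(Q3-normalized count + 1), so a fold change understates that of low genes. limma 3.58.1 (R 4.3.3) was fitted over all 15782 genes with a mean-variance trend, without replicate blocks: within each region (12 AOIs, 4 groups), on the mean of the 4 AOIs of each mouse (12 mice), and over 48 AOIs with the mouse as random block. Benjamini-Hochberg adjustment ran over all genes; the threshold was 0.05, with a 1.5-fold threshold within and between regions. Counts of 15777 genes joined to their probe were tested as alternatives with edgeR 4.0.16 (quasi-likelihood, TMM) and DESeq2 1.42.0. Further alternatives were a pseudocount of 5, a filter on low values, the compared groups alone, a replicate block, each mouse left out and, added after seeing the data, the AOI of fewest nuclei (140) or lowest saturation left out. The scripts were tested on simulated data.

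The replicate numbers were taken as names of mice within a group. Deviations of same-numbered mice of 2 groups correlated at -0.19 to 0.14. AOIs of the same mouse in 2 regions correlated at only -0.025 to 0.24, so this check cannot show whether the numbers pair groups. The labels do not say more of the 3 mice than their group, so p-values measure the spread between them. Named are the module's markers (Hspa8, Hsph1, Hsp90b1, Hsp90ab1, Cryab), every called member or the nearest to a call, the member of highest signal per class, the 3 largest differences per region at an unadjusted p below 0.05 in 2 comparisons, called members between regions, and stress-inducible members; ER, cytosolic and cell type genes come from lists. 1 gene of the oligodendrocyte list was left out of that list's values and is not reported here. Members, lists and rules were chosen with earlier results of these data known. Intervals cover the spread between mice, and the totals limit the precision of low genes.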

Additional observations from a re-analysis of the deposited data

How the results depend on the processing

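Of 42 single values called, 760 alternatives kept the direction in every case: 671 stayed past the threshold and 89 did not, and 0 reversed. Some counts of called genes moved by more than 1.5 times; the cause was not tested. With only the groups compared in the fit, the FLT-BuOE against FLT-SAL pairs fell from 1 to 0. The FLT-BuOE against GC-BuOE pairs went from 5 to 2 with DESeq2 and to 2 without the AOI of lowest saturation. Over the mean of the regions, FLT-BuOE against GC-BuOE went from 6 to 3 with edgeR. A replicate block, although the labels do not pair the groups by number, gave 2 in place of 0 for FLT-BuOE against FLT-SAL. It gave 10 in place of 6 for flight against ground and changed no other count by that much. DG against CA went from 2 to 0 with a pseudocount of 5.

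Leaving out 1 mouse at a time, the pairs called within regions ranged from 0 to 1 for FLT-SAL against GC-SAL, 0 to 1 for FLT-BuOE against FLT-SAL and 1 to 5 for FLT-BuOE against GC-BuOE. Over the mean of the regions the range was 0 to 4 under saline, at 0 when GC-SAL mouse 1, GC-SAL mouse 2 or FLT-SAL mouse 3 was left out, 4 to 6 for FLT-BuOE against GC-BuOE, 0 to 1 for FLT-BuOE against FLT-SAL and 6 to 8 for flight against ground. Between regions it was 1 to 2 for DG against CA and 3 to 4 for hippocampus against cortex. GC-BuOE against GC-SAL and the interaction stayed at 0. Depth limits the low genes: FLT-BuOE AOIs had a median of 548888 counts and FLT-SAL AOIs 991426, and Hspa1a or Hspb11 lay near the negative probes.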
